A study of Mus musculus with 30 samples.

Results

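The comparison set 3 RNA-seq libraries labelled KDM4A/4C DKO, a double knockout, against the 3 libraries labelled Control of the same experiment. These 6 were chosen by their genotype label out of 30 samples in the series, 18 of which are RNA libraries. Both groups are labelled as mouse embryonic stem cells, and neither carries a label for treatment, culture stage, cell line, clone or sex. The series studies ETV2, the ETS factor without which embryos form neither blood nor vessels, together with the H3K9 demethylase KDM4A. Its other RNA groups are the iETV2 line and the iETV2-KDM4A (H188A) line, each with doxycycline (DOX, which switches Etv2 on) and without it. They are used below to place a few levels, to list genes that changed with DOX, and in an alternative fit of all RNA libraries.

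KDM4A and KDM4C are enzymes that remove methyl groups from lysine 9 and lysine 36 of histone H3. Trimethylated lysine 9 (H3K9me3) marks silenced genes and repeats, and its removal is one route by which a silent gene can be opened. Mouse embryonic stem cells keep themselves pluripotent through the factors Oct4 (Pou5f1), Sox2 and Nanog. When they leave that state towards blood, they pass through an epiblast-like and a mesodermal stage, then express Tal1, Runx1 and Gata1 and finally embryonic globins.

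Raw counts were deposited for 55487 genes, of which 20426 had enough counts to be tested. Library totals were 43246166 to 56671150 counts in DKO-labelled and 51011246 to 63246156 in control libraries. Mitochondrial genes took 4.82 to 5.67% of counts in DKO-labelled and 3.64 to 3.73% in control libraries; the part of this gap in the results was not tested. One library stood apart in breadth: 37910 genes had a count in control replicate 3, against 28090 to 30336 in the other 5 libraries, and 4548 of them had a count nowhere else, with a median of 1 read. Levels are counts scaled to the library total (CPM, per 1e+06 counts), given for replicates 1, 2 and 3 in that order or as mean ± SD over 3 libraries. Changes are log2 ratios of DKO-labelled over control libraries ± SE, and "rose" and "fell" mean an adjusted p under 0.05. CPM is not divided by gene length, so levels of different genes are not compared. Nothing in the labels says whether replicates were grown separately, and p-values therefore reflect only library-to-library spread, which may be technical.

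The 2 targeted genes were read first. Kdm4a (ENSMUSG00000033326, chromosome 4:118136957-118180090, GRCm38) had 42.9, 46.9 and 42.0 CPM in DKO-labelled libraries, against 53.9, 54.4 and 55.7 CPM in control libraries. All 3 DKO-labelled libraries lay below all 3 controls, and the log2 change was -0.44 ± 0.05 (adjusted p = 6.82e-08). Kdm4c (ENSMUSG00000028397, chromosome 4:74242497-74405864) went the other way, with 48.0, 42.7 and 46.0 CPM in DKO-labelled libraries, against 30.2, 32.2 and 29.6 CPM in control libraries. Its log2 change was 0.45 ± 0.06 (adjusted p = 5.02e-07), again with no overlap. Both genes lie on chromosome 4, where 52.4% of tested genes fell. The median log2 change there was -0.51 over 344 genes with an average log2 CPM of at least 5. The decrease of Kdm4a was thus no larger than that of a typical expressed gene of its chromosome. A count over a whole gene cannot show the loss of 1 exon or a small frameshift, so these levels neither bear out nor contradict the genotype, and the libraries are called DKO-labelled throughout. Kdm4b, the third broadly expressed member, had 49.1, 47.3 and 45.6 CPM in DKO-labelled libraries, against 49.4, 47.3 and 51.2 CPM in control libraries. These groups overlapped, and its change of -0.18 ± 0.05 (adjusted p = 0.00154) lost its call when libraries were scaled by totals alone (-0.06, adjusted p = 0.24). The testis-rich member Kdm4d was low in both groups but higher in DKO-labelled libraries (0.925, 0.618 and 0.863 CPM DKO-labelled against 0.108, 0.196 and 0.111 CPM control, log2 change 2.41 ± 0.48). Both groups of this experiment had less Kdm4a than the other RNA groups of the series, whose means were 83.5 to 87.3 CPM. Kdm4c was lower here too, at 45.5 CPM DKO-labelled and 30.7 CPM control, against means of 57.1 to 111 CPM there. Those libraries belong to other experiments, and no test was made across them.

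The 2 groups differed across most of the transcriptome. Of 20426 tested genes, 14153 (69.3%) passed the test, 7268 (35.6%) rising and 6885 (33.7%) falling in DKO-labelled libraries. At least 2-fold changes were more often increases: 4011 genes (19.6%) rose and 1795 (8.79%) fell by that much. Without control replicate 3 these counts were 4596 and 1763. The median log2 change over all tested genes was 0.037, a value that depends on the scaling: library totals alone moved it by 0.12. The CPM values of 73.3% of tested genes did not overlap between the groups. The shares depended on level: of 5725 autosomal genes with an average log2 CPM of at least 5, 26.1% rose and 58.3% fell. Member counts below are to be read against the shares over all tested genes. Those of lists of highly expressed genes are to be read against the shares at that level.

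The 4 marker genes of the comparison showed the direction of the difference. Nanog (chromosome 6:122707489-122714633), a homeobox factor of the pluripotent state, had 211, 215 and 205 CPM in DKO-labelled libraries, against 6.41, 6.70 and 7.83 CPM in control libraries. Pou5f1 (chromosome 17:35506032-35510777) had 383, 377 and 349 CPM in DKO-labelled libraries, against 22.3, 23.3 and 22.9 CPM in control libraries. The DKO-labelled libraries were high and the controls low in both, with log2 changes of 4.79 ± 0.05 and 3.90 ± 0.05. Tal1 (chromosome 4:115056426-115071755), the basic helix-loop-helix factor that founds the blood lineage, had 5.62, 5.89 and 5.94 CPM in DKO-labelled libraries, against 172, 169.7 and 170.1 CPM in control libraries. Runx1 (chromosome 16:92601466-92826074), needed for definitive blood stem cells, had 15.1, 14.3 and 14.8 CPM in DKO-labelled libraries, against 212, 202 and 200.4 CPM in control libraries. Here the controls were high and the DKO-labelled libraries low, with changes of -5.0 ± 0.05 and -3.92 ± 0.05. Adjusted p was 8.64e-24 or smaller for each of the 4.

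**Figure D1:**
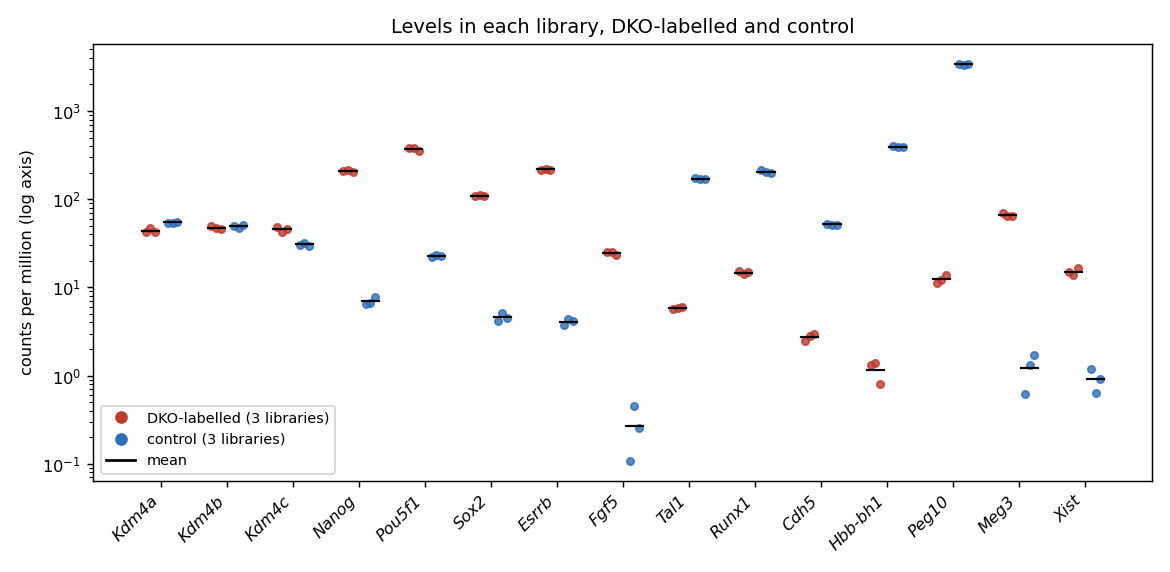
CPM on a log axis for 15 genes, with 1 point per library, DKO-labelled left of control, and a black bar at each mean. Nanog, Pou5f1, Sox2, Esrrb and Fgf5 are high in DKO-labelled libraries, Tal1, Runx1, Cdh5 and Hbb-bh1 are high in controls, and Kdm4a and Kdm4c differ by less than 2-fold.

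Both groups bear the label embryonic stem cell, and only the DKO-labelled libraries reached the Nanog and Pou5f1 range of the other lines. Those lines are no fixed measure of the label. The early mesoderm factor T averaged 679 to 862 CPM in the iETV2 groups and 0.357 to 1.39 CPM in the H188A groups. Nanog averaged 114 to 147 CPM and Pou5f1 306 to 508 CPM in the 4 groups of the iETV2 and H188A lines, against 210.3 and 369 CPM in DKO-labelled and 6.98 and 22.8 CPM in control libraries. Tal1 averaged 5.82 CPM in DKO-labelled and 171 CPM in control libraries, against 37.9 CPM in iETV2 with DOX and 0.543 CPM in iETV2 without it. The mean of the control libraries was thus above that of cells in which Etv2 had been switched on. In these bulk samples, fewer cells of a type and less RNA per cell cannot be told apart, and a difference of genotype cannot be told apart from a difference of culture stage, for which there is no label. Whether the labels of the groups were exchanged cannot be settled from these counts either: Kdm4a was lower and Kdm4c higher in the libraries labelled DKO, and the libraries labelled Control were low in the markers of the cell type on their label. An exchange would turn the sign of every change given here, so each direction holds for the labels as deposited.

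Among 12 core pluripotency genes, 10 rose, 1 fell and 1 did not pass, with a median log2 change of 3.68. Sox2, the partner of Oct4 on DNA, had 109, 112 and 108 CPM in DKO-labelled libraries, against 4.20, 5.12 and 4.49 CPM in control libraries, a change of 4.46 ± 0.06. Tdgf1, the Nodal co-receptor Cripto, averaged 1147 ± 37.6 CPM in DKO-labelled and 102 ± 4.04 CPM in control libraries. Utf1, a chromatin protein of stem cells, rose by 4.94, Dppa2 by 4.64 and Dppa4 by 3.47 on the log2 scale. Lin28a, an RNA-binding blocker of let-7 maturation, was the member that fell (296 CPM DKO-labelled against 422 CPM control, -0.64 ± 0.04), and Sall4 did not pass (455 CPM DKO-labelled against 397 CPM control, adjusted p = 0.0768).

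Of 18 genes of the naive state, the one nearest to the early blastocyst, 15 rose and 2 fell (median 4.05). Esrrb, an orphan nuclear receptor, had 216, 221 and 216 CPM in DKO-labelled libraries, against 3.70, 4.33 and 4.21 CPM in control libraries, and Tfcp2l1, a naive-state transcription factor, had 272, 272 and 267 CPM in DKO-labelled libraries, against 8.08, 7.86 and 8.22 CPM in control libraries. Their changes of 5.62 ± 0.06 and 4.94 ± 0.05 were many times the spread between replicates. Klf2 (109 CPM DKO-labelled against 5.58 CPM control), Klf4 (55.9 CPM DKO-labelled against 3.36 CPM control) and Fgf4 (117 CPM DKO-labelled against 4.44 CPM control) rose as well. The 2 members that fell were the T-box factor Tbx3 (165 CPM DKO-labelled against 232 CPM control, -0.61 ± 0.04) and the JAK-STAT feedback inhibitor Socs3 (10.6 CPM DKO-labelled against 14.9 CPM control, -0.62 ± 0.08). Gbx2 did not pass (adjusted p = 0.421).

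The formative list, genes of the post-implantation epiblast, was split, with 9 of 15 members rising and 5 falling (median 0.89). Fgf5, a growth factor of the epiblast, had 25.2, 25.2 and 23.5 CPM in DKO-labelled libraries, against 0.108, 0.451 and 0.253 CPM in control libraries, a change of 6.41 ± 0.17. Otx2, the homeobox factor of that stage, averaged 103 ± 3.88 CPM in DKO-labelled and 1.88 ± 0.253 CPM in control libraries. Those that fell were Sox4, Tead2, Sall2, Fzd2 and the growth factor Fgf15, which had the largest decrease (3.26 CPM DKO-labelled against 68.9 CPM control, -4.52 ± 0.06). Most naive and most formative markers were thus higher in DKO-labelled libraries. Levels in bulk RNA do not show whether the same cells held both.

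Primitive streak genes, which mark epiblast cells entering mesoderm and endoderm, went both ways. Of 20 members, 13 rose and 5 fell (median 1.38). The early streak factors T (Brachyury), Eomes and Mixl1 rose: T had 264, 256 and 244 CPM in DKO-labelled libraries, against 63.5, 63.3 and 65.5 CPM in control libraries, Eomes averaged 219.9 ± 2.34 CPM in DKO-labelled and 46.2 ± 1.74 CPM in control libraries, and Mixl1 changed by 1.53 ± 0.04. Lhx1, a LIM-homeobox factor, averaged 143 CPM DKO-labelled against 18.0 CPM control. The 5 that fell were Cdx2 (4.09 CPM DKO-labelled against 83.5 CPM control), Rspo3, Msgn1, Evx1 and Wnt3a. Cdx2, Evx1 and Msgn1 are factors of the posterior streak and early paraxial mesoderm. Mesp1, a factor of cardiovascular mesoderm, did not pass (6.41 CPM DKO-labelled against 6.94 CPM control, adjusted p = 0.0822).

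Nodal signalling patterns the epiblast, and a ligand, a co-receptor and feedback inhibitors of it rose. Nodal itself had 134, 133 and 126 CPM in DKO-labelled libraries, against 4.04, 4.37 and 5.14 CPM in control libraries. Lefty1 and Lefty2, secreted Nodal inhibitors, changed by 5.86 ± 0.13 and 5.09 ± 0.07, and Gdf3, a related ligand, by 5.75 ± 0.10. Within the same list of 21 Nodal, TGF-beta and BMP genes, 9 rose and 11 fell (median -0.15). Among those that fell, Bmp4 averaged 28.9 CPM DKO-labelled against 81.2 CPM control, the BMP targets Id1, Id2 and Id3 fell by 1.14, 0.69 and 1.37 on the log2 scale, and the inhibitory factors Smad6 and Bambi changed by -2.62 ± 0.05 and -2.42 ± 0.05. Of 18 FGF and ERK response genes (median 0.20), 10 rose, among them Etv5 (395 CPM DKO-labelled against 63.0 CPM control), Dusp6 (205 CPM DKO-labelled against 53.2 CPM control) and Spry2 (65.0 CPM DKO-labelled against 16.2 CPM control), while 7 fell, led by Fgf15 and the receptor Fgfr2 (8.06 CPM DKO-labelled against 59.5 CPM control). The 23 WNT genes were mixed (median 0.41), 12 rising and 7 falling: Wnt8a rose to 37.0 CPM in DKO-labelled libraries, against 1.00 CPM in control libraries, and Wnt5a fell to 23.6 CPM in DKO-labelled libraries, against 206 CPM in control libraries.

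The blood list moved as one. All 24 of its 25 members that could be tested fell, 22 of them at least 2-fold, with a median log2 change of -4.56. Summed over the list, the level was 157 to 162 CPM in DKO-labelled and 1979 to 2064 CPM in control libraries. Ptprc, the pan-leukocyte marker CD45, was near zero in both groups (8 counts in DKO-labelled and 20 in control libraries) and was not tested. Gata1, the erythroid master factor, averaged 0.912 ± 0.246 CPM in DKO-labelled and 71.1 ± 2.87 CPM in control libraries, a change of -6.40 ± 0.10. Gfi1b (0.897 CPM DKO-labelled against 47.1 CPM control), Ikzf1 (3.57 CPM DKO-labelled against 82.8 CPM control) and Nfe2 (0.135 CPM DKO-labelled against 26.6 CPM control), factors of blood progenitors and their erythroid and megakaryocytic descendants, were all lower in DKO-labelled libraries. Myb fell least (-0.35 ± 0.05), followed by Cd34 (-0.97 ± 0.16) and the receptor Kit (-1.46 ± 0.04).

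The embryonic globins, made in primitive red cells of the yolk sac, were among the largest decreases. Hba-x (zeta-globin, chromosome 11:32276600-32278116) had 0.208, 0.512 and 0.589 CPM in DKO-labelled libraries, against 385, 366 and 349.9 CPM in control libraries. Hbb-bh1, a beta-like embryonic globin, had 1.32, 1.39 and 0.80 CPM in DKO-labelled libraries, against 396, 389.5 and 394 CPM in control libraries. Neither pair of groups came near to overlapping, and the changes were -9.80 ± 0.10 and -8.50 ± 0.08. Hbb-y, the epsilon-like globin, had 4 counts over the 3 DKO-labelled libraries and 6758 over the controls, which makes it 1466-fold lower, with a 95% counting interval of 572 to 5381. Hba-a1 also fell (0.139, 0 and 0.547 CPM DKO-labelled against 36.4, 32.0 and 29.7 CPM control), but it has a near-identical copy, so its value is uncertain; its log2 change of -7.34 ± 0.25 became -9.13 without DKO replicate 3 and -6.65 without DKO replicate 2. Hbb-bh1 averaged 80.7 CPM in iETV2 with DOX, a lower level than in the control libraries, without a test across the 2 experiments.

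Promoters of the globins Hba-x and Hbb-y are shown for the letters GATAA, which the blood factor Gata1 reads. Those of the other globins are not shown. Gata1 fell as the globins did, and a link between them was not tested. The sequences are from RefSeq (GRCm38.p6), 250 bases before to 50 bases after the annotated start, on the gene's strand, with GATAA or its reverse complement TTATC in capitals. Both windows hold 1 match.
Hba-x (chr11:32276350-32276649, plus strand): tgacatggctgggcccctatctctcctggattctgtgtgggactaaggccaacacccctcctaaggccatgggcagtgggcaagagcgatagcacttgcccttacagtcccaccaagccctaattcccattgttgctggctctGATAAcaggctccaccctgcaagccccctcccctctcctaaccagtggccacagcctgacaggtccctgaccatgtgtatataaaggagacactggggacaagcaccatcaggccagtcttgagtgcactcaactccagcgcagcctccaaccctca
Hbb-y (chr7:103853158-103853457, minus strand): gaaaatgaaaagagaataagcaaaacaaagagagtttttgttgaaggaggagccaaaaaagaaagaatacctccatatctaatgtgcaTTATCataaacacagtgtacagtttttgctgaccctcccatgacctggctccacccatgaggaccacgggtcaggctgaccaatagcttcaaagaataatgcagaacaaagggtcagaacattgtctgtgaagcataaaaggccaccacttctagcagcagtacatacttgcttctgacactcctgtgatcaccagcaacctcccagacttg
The Tal1 window holds 1 as well. On either strand, GATAA was found in 21.2% of 1128 promoters of genes that fell at least 2-fold, 18.5% of 2264 that rose as much and 16.6% of all 12646 tested genes with a promoter. A match of 5 letters is a description of the sequence, not of binding.
The Nanog window is shown for the letters TTTGCAT, read by Oct4, in capitals (reverse complement ATGCAAA); it lies at chr6:122707239-122707538, plus strand.
Nanog: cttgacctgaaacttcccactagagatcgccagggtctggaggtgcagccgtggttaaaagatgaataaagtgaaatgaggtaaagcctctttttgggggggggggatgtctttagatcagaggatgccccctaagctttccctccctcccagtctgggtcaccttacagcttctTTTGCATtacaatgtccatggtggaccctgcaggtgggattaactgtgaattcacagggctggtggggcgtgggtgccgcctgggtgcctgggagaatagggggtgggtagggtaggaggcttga
TTTGCAT was found on either strand in 5.48% of promoters of genes that rose at least 2-fold, 3.01% of those that fell as much and 3.38% of all.

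Endothelial genes, of cells that share a precursor with blood, showed the same direction. Of 29 tested members, 27 fell and 2 rose (median -1.83), and the summed level was 410.1 to 417 CPM in DKO-labelled and 1452 to 1469.9 CPM in control libraries. Cdh5, the VE-cadherin of endothelial junctions, had 2.50, 2.82 and 2.97 CPM in DKO-labelled libraries, against 52.8, 51.0 and 51.1 CPM in control libraries. Kdr, the VEGF receptor already present on the common precursor, had 87.2, 80.7 and 84.9 CPM in DKO-labelled libraries, against 354, 352 and 352 CPM in control libraries. The log2 change was -2.19 ± 0.04 for Kdr, -4.34 ± 0.08 for Cdh5 and -4.51 ± 0.08 for the ETS factor Fli1. Etv2, which gave the series its subject, averaged 2.92 ± 0.453 CPM in DKO-labelled and 8.05 ± 0.669 CPM in control libraries and fell by 1.58 on the log2 scale. The 2 members that rose were Robo4 (5.30 CPM DKO-labelled against 1.01 CPM control) and Apln, the ligand of the apelin receptor (15.6 CPM DKO-labelled against 5.47 CPM control), whereas the receptor Aplnr fell (33.1 CPM DKO-labelled against 107 CPM control).

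In the cardiac and lateral mesoderm list, 17 of 20 members fell and 3 rose (median -1.80). Hand1, a factor of lateral and extraembryonic mesoderm, had 8.81, 9.88 and 10.5 CPM in DKO-labelled libraries, against 623, 591 and 584 CPM in control libraries, a change of -6.07 ± 0.06. Foxf1, a forkhead factor of lateral mesoderm, averaged 2.24 ± 0.214 CPM in DKO-labelled and 58.2 ± 2.89 CPM in control libraries, and Tbx20 27.4 CPM DKO-labelled against 172 CPM control. The contractile genes Myh6, Myh7 and Tnnt2 were under 4 CPM in both groups. Tbx5 (5.63 CPM DKO-labelled against 0.985 CPM control), Pdgfra (62.7 CPM DKO-labelled against 32.6 CPM control) and Snai1 rose, the last only by 0.11 ± 0.05, a call that 8 of the 14 alternative settings lost. Gata5, a factor of heart and endoderm, had 2 counts in DKO-labelled and 1209 in control libraries, 524-fold lower, with a 95% counting interval of 145 to 4335. Both counts came from DKO replicate 3, so without it the 2 remaining DKO-labelled libraries were at 0; the fitted log2 change of -8.91 became -11.62 without that library and -8.30 without DKO replicate 2. Gata4, its relative, differed little (70.4 CPM DKO-labelled against 74.3 CPM control, -0.20 ± 0.04).

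**Figure D2:**
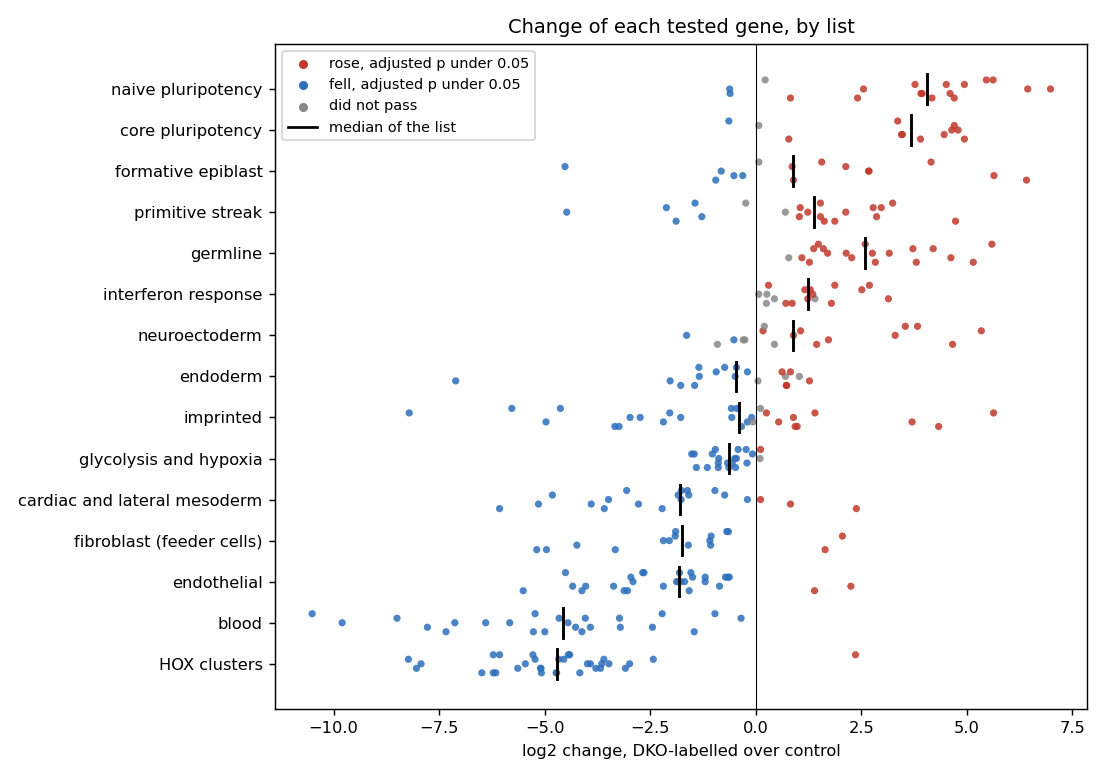
Log2 change, DKO-labelled over control, of each tested gene (points) in 15 lists, with the list median as a black line; red points rose, blue points fell and grey points did not pass. Naive and core pluripotency medians lie near 4, while blood and HOX medians lie below -4.

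The HOX clusters, whose genes are switched on in order along the trunk axis, were low in DKO-labelled libraries. Of 38 genes, 33 could be tested, 32 fell and 1 rose, and the median log2 change was -4.72. As a member could be tested only where 1 group had enough counts, the tested members are those that were high somewhere. The summed level was 10.3 to 11.4 CPM in DKO-labelled and 235 to 239.8 CPM in control libraries. Hoxb6 (chromosome 11:96292814-96301569) had 0.0694, 0.106 and 0.0842 CPM in DKO-labelled libraries, against 24.6, 24.2 and 26.0 CPM in control libraries, with a change of -8.23 ± 0.15. All 4 cluster medians were negative: the median was -4.70 over 8 Hoxa genes, -5.64 over 9 Hoxb genes, -4.75 over 8 Hoxc genes and -4.63 over 8 Hoxd genes. Decreases reached from a 3' end (Hoxd1 -4.72 ± 0.22) to the 5' ends (Hoxa13 -3.65 ± 0.25, Hoxd13 -3.99 ± 0.22). Hoxa11 had 1 count in DKO-labelled and 377 in control libraries, 327-fold lower, with a 95% counting interval of 58.3 to 12952, and that count came from DKO replicate 3. The exception was Hoxc13 (1.29, 1.06 and 1.01 CPM DKO-labelled against 0.216, 0.157 and 0.221 CPM control, 2.36 ± 0.40). Cdx2 and its X-linked relative Cdx4 (0.995 CPM DKO-labelled against 18.7 CPM control), caudal factors known to act on HOX genes, fell as well.

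**Figure D3:**
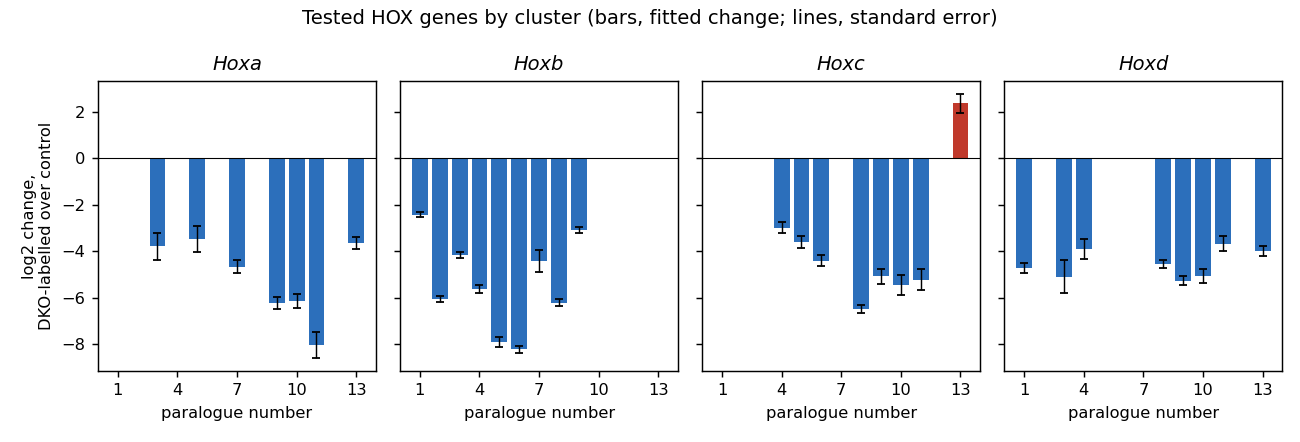
Fitted log2 change (bars, DKO-labelled over control) with standard errors (lines) for 32 of the 33 tested HOX genes, by cluster and paralogue number. All bars but that of Hoxc13 point down, to -8.23 at Hoxb6.

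Markers of other lineages were counted in the same way. In the endoderm list 5 of 19 tested members rose and 11 fell (median -0.46): Col4a1 averaged 85 CPM DKO-labelled against 318 CPM control and Dab2 6.79 CPM DKO-labelled against 15.9 CPM control, while Lamb1 rose (279 CPM DKO-labelled against 155 CPM control). Afp and Sox17, defining markers of extraembryonic and definitive endoderm, were under 4 CPM in both groups. Neuroectoderm had 10 of 17 tested members rising and 2 falling (median 0.89), among them the neural factors Olig2 (46.5 CPM DKO-labelled against 1.05 CPM control) and Neurod1 (11.8 CPM DKO-labelled against 1.09 CPM control). Pax6 did not pass (1.28 CPM DKO-labelled against 0.866 CPM control) and Sox1 stayed under 2 CPM in both groups. The trophoblast list was divided, with 6 rising and 7 falling of 14 (median -0.25); Elf5, its defining factor, was near zero in both groups (not tested), and the placental gene Plac1 fell (0.274 CPM DKO-labelled against 16.8 CPM control).

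Fibroblast genes were followed because embryonic stem cells are often grown on feeder fibroblasts. Of 16 tested members 14 fell and 2 rose (median -1.75), and the summed level was 4789.6 to 5014 CPM in DKO-labelled and 7937 to 8152 CPM in control libraries, most of it Fn1. Col1a1 averaged 13.8 CPM DKO-labelled against 393 CPM control, Acta2 2.68 CPM DKO-labelled against 89.0 CPM control and Postn 0.535 CPM DKO-labelled against 9.13 CPM control, whereas the surface marker Thy1 was higher in DKO-labelled libraries (9.10 CPM DKO-labelled against 2.68 CPM control). Dcn, Lum and S100a4 were under 1 CPM in both groups, and the log2 change of Dcn, 2.05 ± 0.52, became 2.94 without control replicate 2. Mesoderm also expresses several of these genes. The part of feeder cells in the results was not tested.

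**Figure D4:**
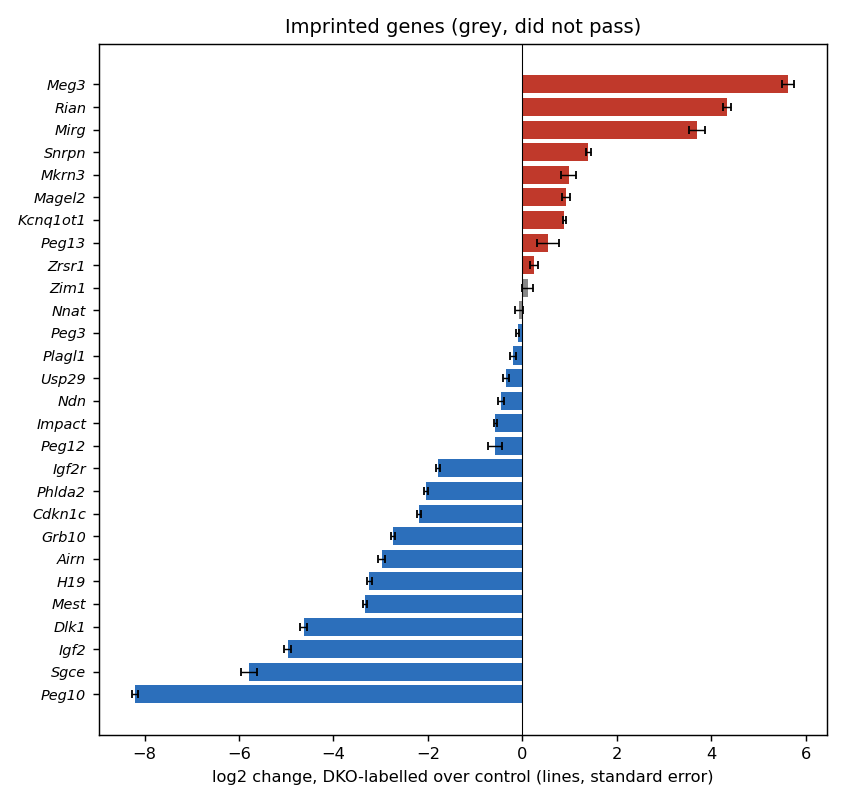
Fitted log2 change of the 28 imprinted genes (bars, DKO-labelled over control; lines, standard error), sorted; grey bars did not pass. Meg3, Rian and Mirg stand at the top with 5.63, 4.33 and 3.70, and Peg10 at the bottom with -8.21.

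Imprinted genes, expressed from 1 parental copy under the control of DNA methylation, included some of the largest differences. Of 28 tested, 9 rose and 17 fell (median -0.40). Peg10 (chromosome 6:4747306-4760517), a retrotransposon-derived gene expressed from the paternal copy, had 11.3, 12.2 and 13.7 CPM in DKO-labelled libraries, against 3422, 3325 and 3372 CPM in control libraries, a change of -8.21 ± 0.06 and the smallest adjusted p of the named genes (1.97e-27). Its neighbour Sgce (chromosome 6:4674350-4747204), which runs the other way from an adjoining start, had 0.162, 0.582 and 0.463 CPM in DKO-labelled libraries, against 22.1, 21.5 and 20.3 CPM in control libraries. The 2 genes were expressed in all 4 other RNA groups, Peg10 at 680.4 to 1541 CPM and Sgce at 11.6 to 22.5 CPM on average, so the DKO-labelled libraries were the exception.

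At the Dlk1-Meg3 region of chromosome 12, noncoding genes were lower in both groups than in the other RNA groups, and lowest in controls. The maternally expressed noncoding genes Meg3 (69.1, 65.1 and 63.8 CPM DKO-labelled against 0.611, 1.31 and 1.71 CPM control), Rian (69.4, 76.7 and 75.9 CPM DKO-labelled against 2.75, 3.96 and 3.45 CPM control) and Mirg (9.62, 8.54 and 8.23 CPM DKO-labelled against 0.431, 0.627 and 0.791 CPM control) were near zero in control libraries. In the other 4 RNA groups, Meg3 averaged 474 to 608 CPM, Rian 822 to 1015 CPM and Mirg 84.3 to 115 CPM. The DKO-labelled libraries were well below these, with Meg3 at 66.0 ± 2.78 CPM, Rian at 74.0 CPM and Mirg at 8.80 CPM. The paternally expressed Dlk1 of the same region went the other way (2.63 CPM DKO-labelled against 60.1 CPM control, -4.63 ± 0.07). On chromosome 7, Igf2, a fetal growth factor, and H19, its reciprocally imprinted noncoding neighbour, both fell: Igf2 had 9.57, 11.2 and 8.84 CPM in DKO-labelled libraries, against 294, 293 and 267 CPM in control libraries, and H19 averaged 39.6 ± 2.41 CPM in DKO-labelled and 343 ± 4.87 CPM in control libraries. Mest (143 CPM DKO-labelled against 1329 CPM control), Grb10 (203 CPM DKO-labelled against 1243 CPM control), Igf2r (240.1 CPM DKO-labelled against 758 CPM control) and Cdkn1c (27.3 CPM DKO-labelled against 115 CPM control) fell too. Snrpn (52.5 CPM DKO-labelled against 18.3 CPM control) and Kcnq1ot1 (622 CPM DKO-labelled against 309 CPM control) rose. Which parental copy was read cannot be seen in these counts.

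Genes of DNA methylation were mostly higher. Of 9 members 6 rose and 2 fell (median 0.86). Dnmt3l, the cofactor of de novo methylation, had 91.3, 89.9 and 89.1 CPM in DKO-labelled libraries, against 2.30, 2.49 and 3.4 CPM in control libraries, and the de novo enzyme Dnmt3b averaged 315 ± 12.8 CPM in DKO-labelled and 97.8 ± 1.43 CPM in control libraries. Tet1, which oxidises methylcytosine in stem cells, rose (801 CPM DKO-labelled against 205 CPM control) and Tet3 fell (51.7 CPM DKO-labelled against 178 CPM control). Zfp57, a zinc finger protein that protects imprints, averaged 263 ± 6.02 CPM in DKO-labelled and 56.1 ± 3.01 CPM in control libraries, a change of 2.11 ± 0.05.

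Among 18 genes that write or read H3K9 methylation, 9 rose, 7 fell and 2 did not pass, with a median of 0.09, against 0.037 over all tested genes. The largest decreases were in the methyltransferase Suv39h1 (114, 107 and 107 CPM DKO-labelled against 260.4, 268 and 259.6 CPM control, -1.39 ± 0.04) and the heterochromatin protein Cbx3 (52.1, 54.3 and 53.9 CPM DKO-labelled against 119.7, 128 and 129.6 CPM control, -1.36 ± 0.04). Atrx, a remodeller of silent repeats, had the largest increase (817, 819 and 829 CPM DKO-labelled against 333, 354 and 348 CPM control, 1.13 ± 0.03). Setdb1, the methyltransferase of zinc finger genes and retroviruses, changed by 0.20 ± 0.04. Of 8 other H3K9 demethylases, 5 rose and 3 fell (median 0.23): Jmjd1c rose most (666 CPM DKO-labelled against 298 CPM control) and Phf2 fell most (30.3 CPM DKO-labelled against 49.8 CPM control). Kdm1a (LSD1) differed little (156 CPM DKO-labelled against 166 CPM control, -0.21 ± 0.04).

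Because KDM4 enzymes act on H3K9me3, the genes were set beside the mark. Maps of the mark in DKO-labelled or control cells were not used here. The deposited regions used here came from 3 untreated samples whose titles read EB, that is embryoid bodies, and the lists hold 37129 to 43599 regions. A gene counted as near the mark when a region of all 3 lists lay within 5 kb of it. This held for 25.1% (809 of 3226) of genes that rose at least 2-fold, with a 95% Wilson interval of 23.6 to 26.6%. It held for 18.4% (293 of 1596) of genes that fell as much and 18.0% (3115 of 17351) of all tested genes with a position. Intervals cover counting error only, and neighbouring genes share regions. Seen from the mark, 26.0% of genes near it and 17.0% of genes away from it rose at least 2-fold, while 9.41% of genes near it and 9.15% of genes away from it fell as much. Zinc finger genes named Zfp, many of which lie in H3K9me3 domains, showed the same order: 25.3% of 158 near the mark and 12.1% of 223 away from it rose at least 2-fold. Without them the share near the mark was 24.3% of genes that rose and 17.4% of all. The direction of the gap held with windows of 0 and 20 kb (20.5% of genes that rose against 13.6% of all at 0 kb, and 36.6% against 30.3% at 20 kb). Genes were not matched for expression level, and a low gene could be tested only where a group of libraries had enough counts. All windows used the same tested genes, so they do not address this limit. The part of expression level in the gap was not tested. No test of these shares was made.

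Germline genes, many of them silenced by DNA and H3K9 methylation in other cells, were mostly higher. Of 24 listed, 19 could be tested, 18 rose, each at least 2-fold, and none fell by edgeR's test. The lowest change in the list was 0.78, so 0 fell at an unadjusted p under 0.05, and 0 fell under DESeq2. The median was 2.59 and the summed level 89.1 to 91.1 CPM in DKO-labelled and 13.8 to 16.8 CPM in control libraries, so the levels stayed low. The meiotic genes Sycp3 (14.5, 14.4 and 16.3 CPM DKO-labelled against 0.916, 1.10 and 0.964 CPM control), Smc1b (11.7, 11.8 and 11.2 CPM DKO-labelled against 0.305, 0.510 and 0.474 CPM control) and Hormad1 (7.98, 6.88 and 8.17 CPM DKO-labelled against 0.377, 0.333 and 0.427 CPM control) led the list, with changes of 3.8 ± 0.12, 4.62 ± 0.16 and 4.20 ± 0.18. Dazl, an RNA-binding protein of germ cells, rose to 1.98 CPM in DKO-labelled libraries, against 0.252 CPM in control libraries. Mov10l1 did not pass. A gene of this list could be tested only where 1 group had enough counts, so the members tested are those that were high somewhere. Genes of the 2-cell-like state could hardly be measured: 1 of 16, Zscan5b, was tested (0.902, 1.68 and 1.62 CPM DKO-labelled against 0, 0.0980 and 0.0632 CPM control, 4.55 ± 0.56, or 5.19 without control replicate 2), and the Zscan4 genes had 0 to 5 counts per group.

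Other families were picked after their values were seen. Most of them are low, and a member could be tested only where 1 group had enough counts, so their counts of increases describe the members that were high somewhere and support nothing about the families. All 7 tested Xlr genes, an X-linked family with near-identical copies, rose at least 2-fold: Xlr3a had 21.7, 22.9 and 22.1 CPM in DKO-labelled libraries, against 0.323, 0.470 and 0.648 CPM in control libraries, and Xlr5a, with no count in any control library, was at least 31.7-fold higher (against 3 counts over the 3 control libraries). Of 20 tested Platr genes, noncoding RNAs named for their association with pluripotency, 16 rose, all at least 2-fold. Platr10 had 27.7, 30.6 and 29.9 CPM in DKO-labelled libraries, against 0.844, 0.549 and 0.759 CPM in control libraries. Of 1407 olfactory receptor genes, 17 had enough counts and 15 of these rose. The clustered protocadherins, cell-surface proteins of neurons, had 29 of 49 members rising and 5 falling.

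The miRNA genes of the Mir290 to Mir295 cluster, on chromosome 7, were named after their values were seen; they are known for abundant miRNAs of mouse embryonic stem cells. Of 9 such genes, 7 could be tested and all 7 rose, by 2.08 to 4.27 on the log2 scale. Of all 104 tested Mir genes, 46 rose and 10 fell, and 35.6% of all tested genes rose. Control levels were near the floor, and a low gene could be tested only where 1 group had enough counts. The count of increases thus describes members that were high somewhere and supports nothing about the cluster. Mir291a had 1.83, 1.45 and 1.28 CPM in DKO-labelled libraries, against 0.0359, 0.0784 and 0.0949 CPM in control libraries, a change of 4.27 ± 0.45 (adjusted p = 2.39e-08). Mir295 had 1.57, 1.64 and 2.21 CPM in DKO-labelled libraries, against 0.216, 0.274 and 0.174 CPM in control libraries (2.91 ± 0.34). Reads of total RNA over a hairpin gene can come from a longer transcript, so they do not give mature miRNA levels. The mature 3p sequences, from RefSeq (GRCm38.p6), are shown with the seed, bases 2 to 8, in capitals, because the cluster shares it in part.
mmu-miR-291a-3p: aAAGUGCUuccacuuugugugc
mmu-miR-294-3p: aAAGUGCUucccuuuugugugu
mmu-miR-295-3p: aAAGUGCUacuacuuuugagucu
mmu-miR-291b-3p: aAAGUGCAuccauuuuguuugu
mmu-miR-290a-3p: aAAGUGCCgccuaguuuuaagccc
mmu-miR-293-3p: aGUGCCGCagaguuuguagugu
The first 3 have the seed AAGUGCU, the next AAGUGCA, then AAGUGCC, and the last GUGCCGC. The seed AAGUGCU is also that of miR-302b-3p and miR-302d-3p, whose genes on chromosome 3 had too few counts to be tested. Of 64 Mir297, Mir466 and Mir669 repeats, 26 could be tested and 25 of these rose, under the same limit. They are near-identical copies, so the counts of single genes are uncertain.

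By the rule given with the methods, the largest changes were picked out of all tested genes. The 12 largest increases were Platr12, Serpina3m, Foxd3, Nr0b1, Trh, Tcl1, Fgf5, Nxf3, Zfp264, Xlr4a, Zfp936 and Lefty1. Trh, which encodes thyrotropin-releasing hormone, had 578, 579 and 563 CPM in DKO-labelled libraries, against 4.96, 5.35 and 5.96 CPM in control libraries, a change of 6.60 ± 0.05. Nxf3, an X-linked RNA export factor, averaged 198 ± 10.2 CPM in DKO-labelled and 2.18 ± 0.539 CPM in control libraries. Nr0b1 (Dax1), an X-linked partner of Oct4, had 26.6, 26.0 and 28.1 CPM in DKO-labelled libraries, against 0.180, 0.157 and 0.237 CPM in control libraries. Foxd3, a forkhead repressor of the epiblast, had 8.28, 8.33 and 6.51 CPM DKO-labelled against 0.0719, 0.0392 and 0.0316 CPM control. Platr12 had 850 counts in DKO-labelled and 3 in control libraries, 327-fold higher with a 95% counting interval of 111 to 1587; its fitted log2 change of 8.06 became 8.92 without control replicate 1 and 7.42 without control replicate 3. Without control replicate 3, Serpina3m changed by 8.29 in place of 7.27 and Tcl1 by 7.23 in place of 6.44. The 12 largest decreases were Hbb-y, Hba-x, Gata5, Hbb-bh1, Hoxb6, Peg10, Csf2rb, Hoxb5, Nfe2, F10, Csf2rb2 and Hba-a1. Csf2rb, the shared beta chain of blood cytokine receptors, had 0.116, 0.0529 and 0.168 CPM in DKO-labelled libraries, against 28.8, 28.3 and 27.3 CPM in control libraries, and its close copy Csf2rb2 0.0925, 0.0176 and 0 CPM DKO-labelled against 7.99, 6.92 and 5.83 CPM control. F10, which encodes coagulation factor X, had 0.0231, 0 and 0.0842 CPM DKO-labelled against 8.05, 6.92 and 6.55 CPM control. Low counts in DKO-labelled libraries let 1 library move these values: the log2 change of Csf2rb2, -7.69, became -9.29 without DKO replicate 1, and that of F10, -7.74, became -9.27 without DKO replicate 3 and -7.08 without DKO replicate 2.

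The X chromosome stood apart from the autosomes in its increases. Of 635 X-linked genes tested, 65.0% rose and 14.6% fell, against 33.4% and 38.4% of 16714 autosomal genes. The median log2 change was 0.57 on X and -0.05 on autosomes, and 34.0% of X-linked and 18.0% of autosomal genes rose at least 2-fold. Among genes with an average log2 CPM of at least 5, 71.1% of 225 X-linked genes rose, against 26.1% of 5725 autosomal ones, with medians of 0.37 on X and -0.19 on autosomes. X-linked genes took 4.30, 4.33 and 4.36% of all counts in DKO-labelled libraries, against 3.04, 3.07 and 3.05% in control libraries. The groups did not overlap, and each varied by less than 0.1 percentage points.

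Xist, the noncoding RNA that coats an inactive X, had 14.8, 13.8 and 16.6 CPM in DKO-labelled libraries, against 1.2, 0.627 and 0.917 CPM in control libraries. Its antisense partner Tsix had 19.9, 20.1 and 20.7 CPM in DKO-labelled libraries, against 0.629, 0.706 and 1.04 CPM in control libraries. Without a stated strand setting, reads of the 2 overlapping genes cannot be told apart. Of the 9 tested genes of the X-inactivation list (median 0.81), 8 rose and Cdx4 fell; the E3 ligase Rlim averaged 1229.5 CPM DKO-labelled against 424 CPM control. The Y-linked genes Ddx3y, Uty, Kdm5d and Eif2s3y had 4 to 13 counts over the 3 DKO-labelled and 1 to 6 over the 3 control libraries. Ddx3y averaged 35.1 CPM in the iETV2 line without DOX, so Y-linked RNA was near zero in both groups of this experiment. Xist averaged 62.2 CPM in the H188A line without DOX. The number of X chromosomes was not measured. Among autosomes the medians ran from -0.33 on chromosome 4 to 0.18 on chromosome 7, and chromosomes 2, 4 and 11 had more than 51% of their genes falling. Among genes with an average log2 CPM of at least 5, the lowest medians were -0.51 on chromosome 4, -0.42 on chromosome 2 and -0.4 on chromosome 13. These shifts were larger in size than the 0.37 on X, in the other direction. Their cause was not tested.

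**Figure D5:**
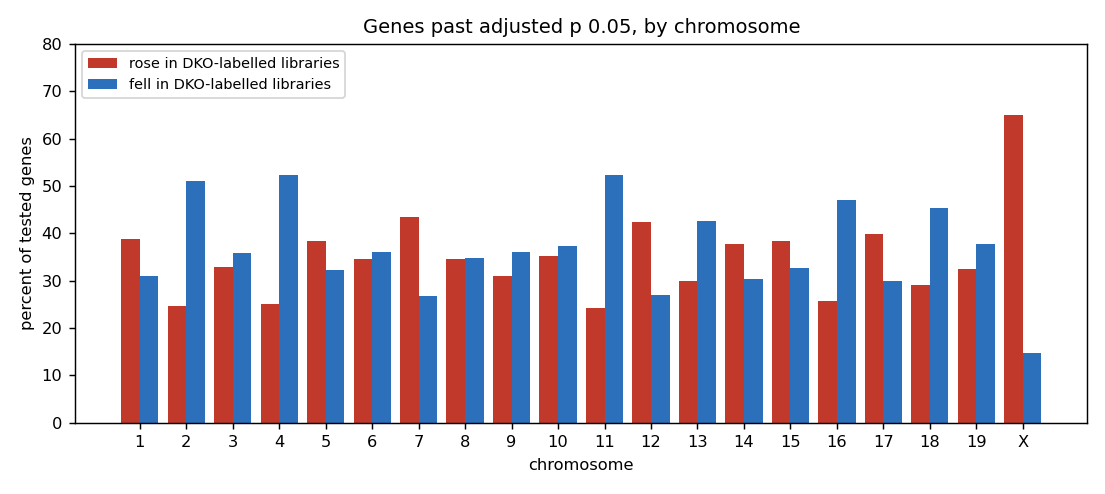
Percent of tested genes that rose (red, left bar) and fell (blue, right bar) in DKO-labelled libraries, by chromosome. On X 65.0% rose and 14.6% fell, while on chromosomes 2, 4 and 11 more than 51% fell.

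Genes that answered to Etv2 in the iETV2 line were counted in the DKO comparison. The 2 comparisons share no library. With DOX, 3010 of 22025 tested genes (13.7%) rose and 2929 (13.3%) fell in that line. Of 876 genes that rose at least 2-fold with DOX and were tested here, 381 (43.5%) fell at least 2-fold in DKO-labelled libraries, against 8.79% of all genes, and 252 (28.8%) rose as much, against 19.6% of all. The 381 make up 21.2% of the genes that fell at least 2-fold. Of 810 genes that fell at least 2-fold with DOX and were tested here, 357 (44.1%) rose as much, against 19.6% of all. Of the same genes, 85 (10.5%) fell at least 2-fold here, near the 8.79% of all. Blood and endothelial genes were among those that went opposite ways: Tal1 changed by -5.0 ± 0.05 in DKO-labelled libraries and by 6.24 ± 0.18 with DOX, Cdh5 by -4.34 ± 0.08 in DKO-labelled libraries and 6.01 ± 0.13 with DOX, Hba-x by -9.80 ± 0.10 in DKO-labelled libraries and 9.03 ± 0.19 with DOX, and Hand1 by -6.07 ± 0.06 in DKO-labelled libraries and 7.24 ± 0.11 with DOX. Fgf5 and Otx2 went up here (6.41 ± 0.17 and 5.64 ± 0.07) and down with DOX (-1.62 ± 0.07 and -1.26 ± 0.07). Mixl1 rose in both, by 1.53 ± 0.04 here and 2.09 ± 0.08 with DOX. Nanog, with 4.79 ± 0.05 here, did not pass with DOX (-0.18 ± 0.07, adjusted p = 0.0607). The overlap was counted, not tested.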

How the data were processed

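RNA was extracted with the Direct-zol kit, per the labels. For each library the authors deposited whole-number counts by Ensembl gene ID, on GRCm38. The submitters' processing notes name HTSeq 2.0.3 and featureCounts 2.0.6 for counting programs, beside the aligner STAR 2.7.10b. Which of them made the counts, and the strand setting, are not given in the sources used here, so antisense, overlapping and near-identical genes are uncertain. For H3K9me3, the authors deposited region lists whose log2 fold change over input is named per the file headers; only positions were used.

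In R 4.3.3 with edgeR 4.0.16, genes were kept by filterByExpr, libraries were scaled by TMM, and the 6 libraries were compared with the quasi-likelihood F test and Benjamini-Hochberg adjustment over all tested genes (threshold 0.05). Each SE was derived from the F statistic as the change over the root of F. CPM uses library totals. The script was tested on simulated data in which few genes changed, equally up and down. That test does not cover differences as wide as those found here. Floors are 3 counts; intervals of count ratios are exact conditional binomial at 95% and cover counting error only. Gene positions and promoters were matched by symbol to RefSeq (GRCm38.p6), which placed 84.9% of tested genes; 55141 of 55487 IDs had a symbol. Python 3.11.15 with pandas 2.3.3 and scipy 1.17.1 made the summaries.

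Named genes are Kdm4a to Kdm4d, the 4 markers, the 12 largest changes per direction (adjusted p under 0.05, average log2 CPM of at least 1, no overlap between groups, an informative symbol), up to 4 members per direction of each of 34 lists with the smallest adjusted p, and list members as values. Further list members, Xlr, Platr, olfactory receptor, protocadherin and miRNA genes were picked on sight of their values. The members and lists were chosen with earlier results of these data known. Some genes are not reported here. Alternatives were other scalings and filters, DESeq2 1.42.0, a fit of all 18 RNA libraries, a replicate block and leaving out each library.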

Additional observations from a re-analysis of the deposited data

How the results depend on the processing

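Of 14153 genes called, none changed direction with a call under any of the 14 alternatives, and 85.7 to 99.0% stayed called in the same direction. Leaving out 1 library at a time gave 13349 to 14513 calls, 6784 to 7594 up and 6478 to 6919 down, and 3866 to 4596 up and 1753 to 1835 down at 2-fold; the highest counts of all, of increases and of 2-fold increases came without control replicate 3. The other alternatives gave 12483 to 14348 calls; a filter of 1 CPM in 3 libraries left 2824 increases and 1289 decreases of 2-fold, since it tested 15589 genes. Scaling by library totals alone moved the median log2 change by 0.12 and the share of increases among calls to 59.6%, against 51.4% with TMM. Kdm4a stayed between -0.49 and -0.31 and Kdm4c between 0.40 and 0.57. Of 216 named genes, 4 lost their call somewhere: Kdm4b under upper quartile scaling, totals alone and no filter (-0.09 to -0.06), and Gpi1, H2-K1 and Snai1 under 3, 5 and 8 settings. Samples with the same replicate number were not treated as paired in the main fit, since the labels do not say what a number marks. Their deviations correlated by 0.041, 0.039 and 0.046, each under 0.1. Those of different numbers correlated by -0.032 to -0.012, so each sample correlated best with its own number. Such small values do not settle whether the samples were paired. A replicate block gave 13926 calls (7129 up, 6797 down), with Kdm4a at -0.44 and Kdm4c at 0.45. Depth limits genes under about 0.05 to 0.07 CPM, which is 3 counts in 1 library.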

Other observations

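Several gene groups outside development also differed between the libraries. Of 17 interferon-response genes (median log2 change 1.23), 12 rose, 5 did not pass and none fell by edgeR's test; the lowest change was 0.07, so 0 fell at an unadjusted p under 0.05, and 0 fell under DESeq2. The RNA sensor Ddx58 (RIG-I) had 43.4, 44.6 and 42.9 CPM in DKO-labelled libraries, against 4.78, 4.35 and 4.52 CPM in control libraries, a log2 change of 3.14 ± 0.07. The nucleic acid sensor Zbp1 averaged 14.0 CPM DKO-labelled against 1.99 CPM control, Ifih1 9.84 CPM DKO-labelled against 3.54 CPM control and Oasl2 44.0 CPM DKO-labelled against 11 CPM control. Isg15, Irf7 and Rsad2 were under 1 CPM in both groups and did not pass. Of 10 genes of MHC class I antigen presentation (median 0.93) 8 rose, among them Tap1 (52.6 CPM DKO-labelled against 14.0 CPM control), B2m (72.8 CPM DKO-labelled against 39.4 CPM control) and Nlrc5 (5.13 CPM DKO-labelled against 0.923 CPM control). H2-K1 fell slightly (-0.21 ± 0.07), a call lost under 5 alternatives. Among 20 p53 targets (median 0.59) 14 rose and 4 fell: the cell-cycle inhibitor Cdkn1a had 155, 148 and 146 CPM in DKO-labelled libraries, against 59.5, 60.8 and 60.4 CPM in control libraries, Perp averaged 66.4 CPM DKO-labelled against 15.1 CPM control, and the apoptosis gene Pmaip1 fell (23 CPM DKO-labelled against 57.8 CPM control).

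Of 20 cell-cycle genes (median -0.34) 12 fell and 6 rose. Myc averaged 51.7 ± 1.41 CPM in DKO-labelled and 234 ± 14.7 CPM in control libraries, while its relative Mycn rose (119 CPM DKO-labelled against 70.8 CPM control); Mki67 fell (781 CPM DKO-labelled against 1119 CPM control). Glycolysis and hypoxia genes were lower in 19 of 21 tested members (median -0.64), with Tpi1 at 209 CPM DKO-labelled against 528 CPM control, the glucose carrier Slc2a1 at 367 CPM DKO-labelled against 894 CPM control and Vegfa at 37.8 CPM DKO-labelled against 99.2 CPM control; Gpi1 rose by 0.11 ± 0.03, a call lost under 3 alternatives. Of 16 ribosomal protein genes (median -0.32) 14 fell, all by less than 0.8 on the log2 scale, and the X-linked Rps4x rose (0.23 ± 0.04). Among all autosomal genes with an average log2 CPM of at least 7, 62.1% fell, with a median of -0.2. Of 13 mitochondrially encoded genes (median 0.23) 7 rose, by up to 0.80 ± 0.04 for mt-Nd5. In the integrated stress response, 12 of 20 fell and 5 rose (median -0.44): the cystine carrier Slc7a11 averaged 5.57 CPM DKO-labelled against 28.9 CPM control and Trib3 10.9 CPM DKO-labelled against 39.7 CPM control. Adhesion and matrix genes had 17 of 23 falling and 6 rising (median -0.41), the epithelial Cdh1 (522 CPM DKO-labelled against 69.3 CPM control) and Epcam (152 CPM DKO-labelled against 16.2 CPM control) up and Vim (194 CPM DKO-labelled against 664 CPM control) and Zeb2 (39.5 CPM DKO-labelled against 192 CPM control) down. Of 15 Notch genes (median 0.23) 8 rose and 6 fell, with Dll1 at 9.80 CPM DKO-labelled against 1.38 CPM control and Hey2 at 1.34 CPM DKO-labelled against 23.8 CPM control. Motile cilia genes rose in 9 of 14 tested members (median 1.08), led by their regulator Foxj1 (19.9 CPM DKO-labelled against 1.43 CPM control). The causes of these differences were not tested.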
